A study of Oryctolagus cuniculus with 8 samples.

Results

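Transcripts of the glycolytic enzymes were followed in the retinas of rabbits fed 4 diets. The members were chosen by gene name, as ALDOC, ALDOA, ENO1, GAPDH, LDHA, LDHB, PKM, PGK1, TPI1 and HK1. Of these 10 genes, 9 had a row among the 25666 genes of the deposited table, and PGK1 was not analysed here because no row carried its symbol. All 9 were above the filter on low values described below, among 12204 protein-coding genes that were. The animals were wild-type male Chinchilla rabbits, about 10 months old at the time of study, which had started their diet at 12 to 16 weeks of age and kept it for 6 months. Normal diet (ND) was standard rabbit chow. High-fat diet (HFD) was the same chow with 10% lard and 0.5% cholesterol, high-sucrose diet (HSD) was chow with 40% sucrose, and high-fat plus high-sucrose diet (HFSD) combined 35% sucrose with the lard and cholesterol of HFD. RNA of 2 dissected retinas per diet was sequenced, 8 libraries in all, and the labels do not say whether the 2 retinas came from separate animals. The p-values therefore measure only the spread between these retinas. Whether the pigment epithelium was removed before extraction is not stated either.

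Glycolysis splits glucose into pyruvate in the cytosol and yields ATP without oxygen. The retina is known for aerobic glycolysis: photoreceptors convert much of their glucose to lactate even when oxygen is at hand, and Müller glia, the radial glial cells of the retina, and the pigment epithelium exchange glucose and lactate with them. Several steps are carried out by isoenzymes from separate genes, which differ in the tissues that use them. In whole retina, fewer cells of a type and less RNA per cell cannot be told apart.

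Levels are given as FPKM, fragments per kilobase of gene scaled to the depth of the library, so that genes of different length can be compared. Rod photoreceptor markers were abundant in every library (8 of 10 had a row), with a summed level between 37515 and 51098 FPKM. The depth by which the authors divided, recovered from the steps of the FPKM values, ran from 15764577 to 22785832 per library. Behind a single member value stood between 4770 fragments (GAPDH in HFD replicate 1) and 140431 fragments (ALDOC in the same library), so that counting error was small beside the range of each member over the 8 retinas. In all sentences that list 2 values per diet, replicate 1 stands before replicate 2.

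The enzymes differed widely in level and kept nearly the same order in every retina. ALDOC was the most abundant member, with a mean of 4244 FPKM over the 8 libraries, followed by ENO1 at 2473 FPKM and TPI1 at 1205 FPKM. Each of these stood above the next in 8 of 8 libraries, and TPI1 stood above ALDOA in 8 of 8. The middle of the order was close: ALDOA had a mean of 923 FPKM, PKM of 833 FPKM and LDHA of 823 FPKM. ALDOA was above PKM in 7 of 8 libraries and PKM above LDHA in 6 of 8. Whether these neighbours differed in level was not tested. GAPDH followed at 512 FPKM, below LDHA in 7 of 8 libraries, and LDHB at 389 FPKM, below GAPDH in 6 of 8. HK1 was the lowest member at 102 FPKM, below LDHB in 8 of 8. Together the 9 members held between 1.79% and 2.34% of the FPKM summed over protein-coding genes. This share was 1.82% and 1.79% in the HSD retinas, the lowest of the 8, and 2.34% in HFD replicate 1, the highest.

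**Figure D1:**
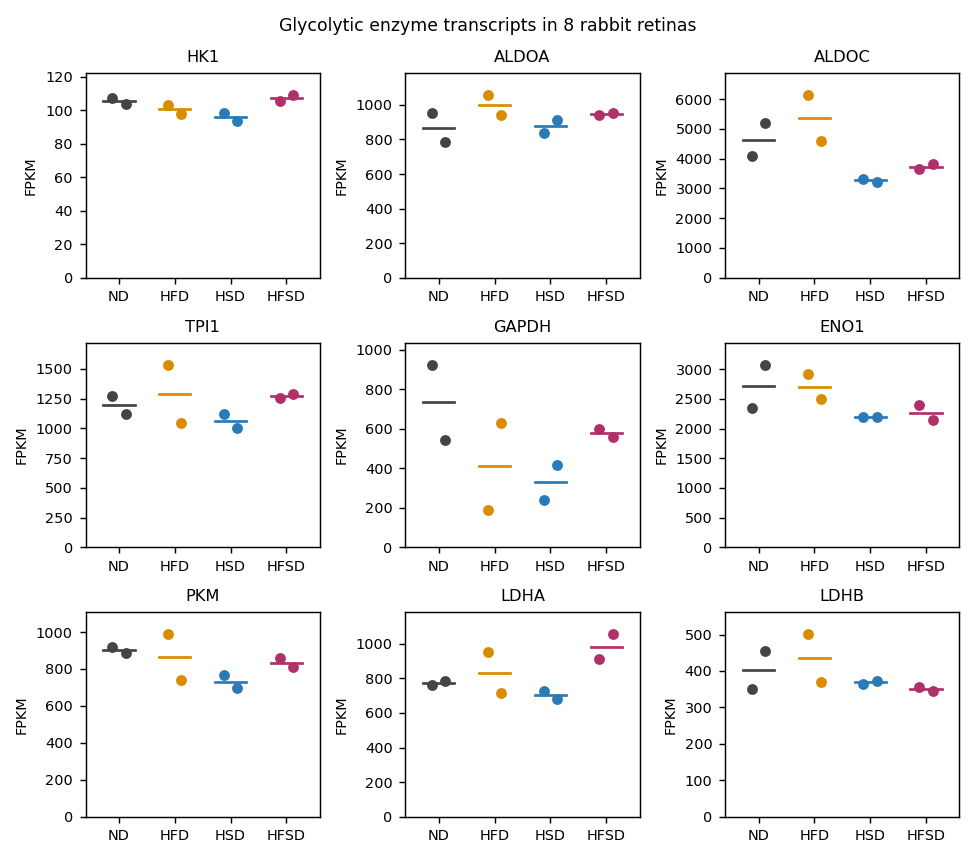
FPKM of the 9 glycolytic enzymes in each retina (points, replicate 1 left of replicate 2), with the mean of each diet (lines); every axis starts at 0 and has its own range. The 4 retinas on sucrose diets lie below the other 4 for ALDOC, GAPDH varies between retinas of 1 diet, and HK1 hardly varies.

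The comparisons ask how added fat, added sucrose and both together went with retinal transcript levels. Differences were tested with limma on log2(FPKM + 1) over all 12204 genes with Benjamini-Hochberg adjustment, and a gene was called at an adjusted p under 0.05. None of the 9 members was called in HFD against ND (0 of 9, against 0.00819% of all genes), in HSD against ND (0 of 9, against 0.0574%) or in HFSD against ND (0 of 9, against 0.0164%). These comparisons share the same ND retinas. With the retinas pooled by ingredient, 4 against 4, 0 of 9 were called for sucrose (0.344% of all genes) and 0 of 9 for fat (0.00819%), and 0 of 9 for the interaction of fat and sucrose (0.00819%). At an unadjusted p under 0.05 there were 0 members on HFD (4.31% of all genes), 0 on HSD (7.2%), 0 on HFSD (8.07%) and 0 for fat (3.2%). There was 1 for sucrose, ALDOC (18.3% of all genes), and 1 for the interaction, GAPDH (3.74%). The limma-voom fit on fragments recovered from the FPKM values also called 0 of 9 in each comparison. Medians of the members' log2 differences were 0.087 on HFD, -0.17 on HSD and -0.11 in HFSD against ND, -0.17 for sucrose and 0.057 for fat, while the median of all genes lay within 0.01 of 0 in each of these. By sign alone, 6 of 9 estimates were above 0 on HFD (51.2% of all genes), 8 of 9 were below 0 on HSD (50.5%), 5 of 9 below 0 on HFSD (50.8%), 8 of 9 below 0 for sucrose (51.3%) and 8 of 9 above 0 for fat (52.6%).

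HK1, a hexokinase that sits on mitochondria, phosphorylates glucose at the entry into the pathway. It was at 107 and 104 FPKM on ND, 103 and 97.5 on HFD, 98.1 and 93.2 on HSD, and 105 and 109 on HFSD. Both HFD and both HSD retinas lay below the ND retinas, and the HFSD retinas overlapped with ND. The differences were small and none was called, with log2 differences from ND of -0.07 on HFD (adjusted p = 0.998), -0.14 on HSD (adjusted p = 0.804) and 0.02 on HFSD (adjusted p = 0.965). In HSD the 95% interval of the log2 difference ran from -0.37 to 0.10. HK1 was the steadiest member: the s.d. of its log2 values over the 8 libraries was 0.0758, and of the 1958 genes with a mean of at least 50 FPKM 5.11% had a smaller one. The median of those genes was 0.161.

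HK2, the hexokinase of muscle and of photoreceptors, was at 95.6 and 76.0 FPKM on ND, 79.7 and 57.5 on HFD, 110 and 78.1 on HSD, and 106 and 119 on HFSD. The 2 hexokinases were thus near each other in level, with HK1 making up between 47.2% and 62.9% of their sum. The retinas with and without sucrose overlapped in this share. For sucrose the log2 difference of HK2 was 0.42 (limma, 95% interval 0.058 to 0.78, unadjusted p = 0.0286, adjusted p = 0.223). Of 14 other glycolytic enzymes tested, 1 was higher for sucrose at an unadjusted p under 0.05 (9.17% of all genes). At that level 3 were lower (9.16%), and 0 were called.

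Aldolase splits the phosphorylated hexose into trioses. ALDOC encodes aldolase C, the isoform of nervous tissue, and ALDOA encodes aldolase A, the isoform of muscle and most other tissues. ALDOC was at 4083 and 5189 FPKM on ND, 6131 and 4574 on HFD, 3304 and 3227 on HSD, and 3641 and 3804 on HFSD. All 4 retinas on sucrose diets lay below all 4 others, a pattern that 1 of 9 members and 6.48% of all tested genes showed in this direction, while 0 of 9 and 6.39% showed the opposite one. The mean was 4636 ± 782 FPKM on ND (s.d., n=2), 5352 ± 1101 on HFD, 3266 ± 54.5 on HSD and 3723 ± 115 on HFSD. Sucrose diets differed from the others by -0.50 on the log2 scale (SE 0.178, 95% interval -0.92 to -0.086), with an unadjusted p of 0.0242 and an adjusted p of 0.211 (limma), so that ALDOC was not called. Over the 17 alternatives the difference stayed between -0.61 and -0.40 and the adjusted p between 0.108 and 0.527.

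ALDOA gave no such separation. It was at 951 and 786 FPKM on ND, 1057 and 942 on HFD, 840.1 and 913 on HSD, and 941 and 954 on HFSD. The lowest and the highest value both came from diets without sucrose, and the log2 difference for sucrose was -0.03 (95% interval -0.29 to 0.24, adjusted p = 0.916). The share of ALDOC in the summed FPKM of both aldolases, which does not depend on how a library is scaled, was 81.1% and 86.8% on ND, 85.3% and 82.9% on HFD, 79.7% and 77.9% on HSD, and 79.5% and 80.0% on HFSD. All 4 retinas with sucrose lay below all 4 without, by 4.78 percentage points on average, where the s.d. within diets was 2.29. The share uses the same ALDOC values, so that this is not a separate result.

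Marker sums of several cell types differed between retinas with and without sucrose. The summed FPKM of the Müller glia list (9 of 10 markers had a row, none at 0 in all libraries) ran from 2802 to 4028 in retinas without sucrose and from 2053 to 2200 with it. Within that list GLUL, glutamine synthetase, was at 1489 to 2127 FPKM without sucrose and 722 to 890 with it, whereas the glutamate transporter SLC1A3 was at 180 to 203 FPKM and 185 to 191 FPKM. Of the 9 markers, 3 (RLBP1, GLUL and CRYM) lay lower in all 4 retinas with sucrose than in all 4 without and 0 lay higher, and the other 6, SLC1A3, AQP4, KCNJ10, VIM, DKK3 and SOX9, overlapped. By limma 7 of the 9 estimates were below 0 and 2 above, 3 had an unadjusted p under 0.05, and 0 were called.

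The list of the pigment epithelium, which shares RLBP1 with the Müller list (10 of 10 with a row), summed to 232 to 545 FPKM without sucrose and 117 to 166 with it. Without sucrose the sum was also lower on HFD, at 308 and 232 FPKM, than on ND, at 467 and 545 FPKM. Of the 10 markers of this list, 2 (LRAT and RLBP1) lay lower in all 4 retinas with sucrose and 0 lay higher. Of its 8 tested markers, 7 had estimates below 0, 7 had an unadjusted p under 0.05 and 0 were called. The astrocyte and myelin list (9 of 10 with a row) summed to 470 to 1809 FPKM without sucrose and 277 to 609 with it, which overlapped. All 8 of its tested markers had estimates below 0, 7 had an unadjusted p under 0.05 and 0 were called. Cone markers (7 of 10 with a row) lay the other way, with sums of 628 to 839 FPKM against 1015 to 1180. All 7 cone estimates were above 0, 6 had an unadjusted p under 0.05, and 2 were called by limma, OPN1SW (log2 difference 1.64, adjusted p = 0.0098) and PDE6C (0.71, adjusted p = 0.0311), the only called markers of the 12 lists for sucrose. The microglia list (10 of 10 with a row) summed to 14.8 to 26.2 FPKM without sucrose and 10.5 to 14.2 with it, also without overlap, and the bipolar cell list (9 of 10) to 829 to 1193 FPKM and 708 to 919 FPKM, which overlapped. Estimates were below 0 for 8 of 9 tested microglia markers and 5 of 9 bipolar markers, and 4 in each list had an unadjusted p under 0.05. Across the 8 libraries the log2 values of ALDOC had a Pearson correlation of 0.876 with the Müller sum, 0.816 with the rod sum, 0.774 with the bipolar sum, 0.727 with the microglia sum, -0.727 with the cone sum, 0.661 with the pigment epithelium sum and 0.577 with the astrocyte and myelin sum, and those of ENO1 of 0.887 with the Müller sum and 0.876 with the rod sum. These are descriptions over 8 points, in each of which all genes share the depth and scaling of the library. The part of any cell type in the ALDOC difference was not tested.

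**Figure D2:**
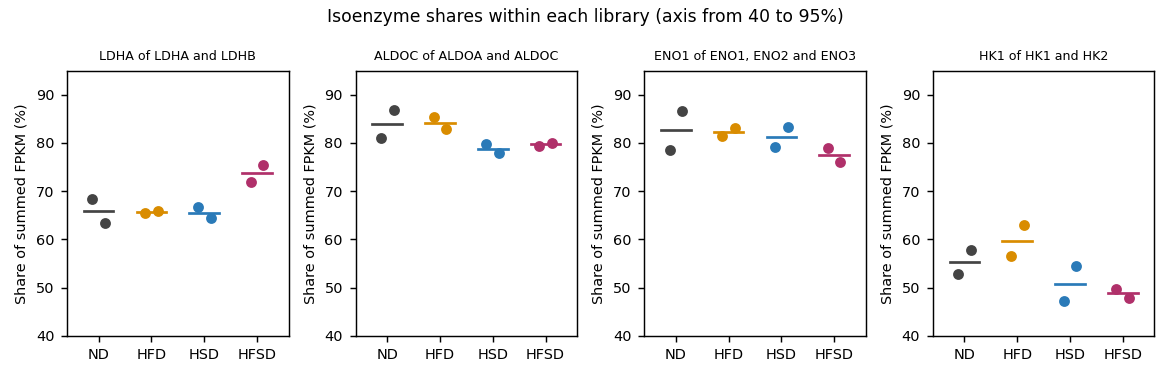
Share of 1 isoenzyme in the summed FPKM of its isoenzymes within each library (points), with the mean of each diet (lines); the axis runs from 40 to 95%, not from 0. The ALDOC share is at most 80.0% in the 4 retinas with sucrose and at least 81.1% in the others, and the LDHA share is highest in the 2 HFSD retinas, at 72.0% and 75.4%.

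TPI1, triosephosphate isomerase, interconverts the products of aldolase. Its level was 1273 and 1119 FPKM on ND, 1535 and 1047 on HFD, 1124 and 1003 on HSD, and 1256 and 1286 on HFSD. The 2 HFD retinas spanned the whole range of the 8 but for HSD replicate 2, and every diet overlapped with ND. Log2 differences from ND were 0.09 on HFD (adjusted p = 0.998), -0.17 on HSD (adjusted p = 0.892) and 0.09 on HFSD (adjusted p = 0.932). The HFD difference was -0.19 without HFD replicate 1 and 0.36 without HFD replicate 2. Over the 17 alternatives the HFSD difference ran from -0.0025 to 0.18.

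GAPDH oxidises glyceraldehyde 3-phosphate and is often taken as a reference gene in expression assays. Here it was the least steady member. It was at 925 and 542 FPKM on ND, 189 and 630.3 on HFD, 241 and 416 on HSD, and 598 and 556 on HFSD. The 2 HFD retinas lay further apart than the means of ND and HSD, the diets with the highest and the lowest mean, and the highest library was 4.89 times the lowest. The s.d. of its log2 values was 0.757, and 98.1% of the 1958 genes with a mean of at least 50 FPKM had a smaller one. Both HSD retinas lay below both ND retinas, at a log2 difference of -1.16 (SE 0.547, 95% interval -2.44 to 0.12, adjusted p = 0.734). In HFD the log2 difference was -1.03 (95% interval -2.31 to 0.24, adjusted p = 0.998). It was -0.17 without HFD replicate 1 and -1.90 without HFD replicate 2. Without ND replicate 1 it was -0.65, and without ND replicate 2 it was -1.42. The interaction of fat and sucrose was 1.90 on the log2 scale, with an unadjusted p of 0.0420 and an adjusted p of 0.999, and ran from 1.03 to 2.76 over its 16 alternatives.

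The study states a fold rule that asks for a ratio of FPKM + 1 below 0.65 or above about the inverse of that value. Applied here to the mean of each diet over all protein-coding rows, with no further filter, it put GAPDH alone of the 9 members past the limits on HFD (0.559) and on HSD (0.448), and 0 members were past them on HFSD. This rule, which takes no account of spread, selected 1.76%, 3.95% and 3.43% of 19293 protein-coding genes on HFD, HSD and HFSD.

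A gene next to GAPDH, IFFO1, was at its highest where GAPDH was at its lowest. NCAPD2, the protein-coding neighbour on the other side, was not examined. IFFO1, which encodes an intermediate filament family protein, lies next to GAPDH in the RefSeq gene table (assembly mOryCun1.1), and was looked at after the GAPDH values were seen. IFFO1 was at 218 and 732 FPKM on ND, 929 and 322 on HFD, 359 and 544 on HSD, and 308 and 286 on HFSD. Where GAPDH was highest (ND replicate 1) IFFO1 was lowest, and where GAPDH was lowest (HFD replicate 1) IFFO1 was highest. The Pearson correlation of their log2 values was -0.665 over the 8 libraries. As fragments per 1000000 of depth, GAPDH ran from 239 to 1168, IFFO1 from 1341 to 5704 and their sum from 2458 to 5943, a 2.42-fold range. Between the 2 retinas of ND and of HFD the genes differed in opposite directions, but within HSD both were higher in replicate 2 (GAPDH 304 and 526, IFFO1 2204 and 3342) and within HFSD both were lower in it (GAPDH 755 and 702, IFFO1 1889 and 1756). Whether fragments were divided between these genes differently from library to library was not tested, and the GAPDH values are to be read with caution. GAPDH also has near-identical processed copies in mammalian genomes, and reads that map to several places were discarded before counting. The part of this in the GAPDH values was not tested either.

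**Figure D3:**
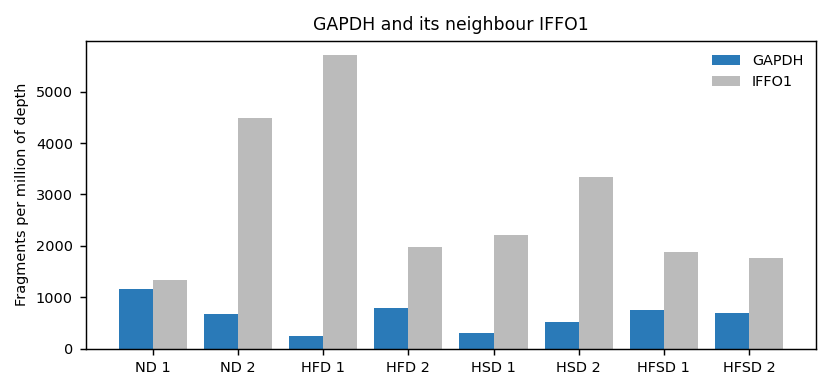
Fragments per 1000000 of depth assigned to GAPDH (blue) and to its neighbour IFFO1 (grey) in each of the 8 libraries; bars start at 0. IFFO1 is at its highest, 5704, in the library where GAPDH is at its lowest, 239.

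ENO1, alpha-enolase, forms phosphoenolpyruvate and was the second most abundant member. It was at 2351 and 3078 FPKM on ND, 2919.7 and 2493 on HFD, 2195 and 2201 on HSD, and 2403 and 2139.6 on HFSD. The HSD retinas lay below the ND retinas, and the 4 retinas with sucrose overlapped with those without only through ND replicate 1 and HFSD replicate 1. The log2 difference for sucrose was -0.27 (95% interval -0.63 to 0.086, adjusted p = 0.376). It was -0.37 without ND replicate 1 and -0.17 without ND replicate 2. ENO2, the enolase of neurons, was at 642 and 469 FPKM on ND, 664 and 508 on HFD, 577 and 416 on HSD, and 637 and 673 on HFSD, and overlapped between all diets and ND. ENO1 made up between 76.0% and 86.7% of the 3 enolases.

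PKM, pyruvate kinase of muscle and brain, makes pyruvate and the final ATP of the pathway. The table gives 1 value for the gene, so its splice forms could not be compared. PKM was at 919.8 and 887 FPKM on ND, 988 and 740.3 on HFD, 766 and 696 on HSD, and 859.8 and 809 on HFSD. Both HSD and both HFSD retinas lay below both ND retinas, and the HFD retinas lay on either side of them. The log2 difference from ND was -0.31 on HSD (95% interval -0.72 to 0.10, adjusted p = 0.762) and -0.11 on HFSD (adjusted p = 0.889).

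Lactate dehydrogenase is a tetramer of LDHA subunits, which favour the making of lactate, and LDHB subunits, which favour its use. LDHA was at 762 and 786 FPKM on ND, 951 and 716 on HFD, 726 and 678 on HSD, and 912 and 1055 on HFSD. The HFSD retinas lay above ND and above HSD and overlapped with HFD through HFD replicate 1. Against ND the log2 difference in HFSD was 0.34 (SE 0.180, 95% interval -0.079 to 0.76, adjusted p = 0.671), the largest of the 9 in that comparison, and LDHA was not called. For fat against no fat it was 0.29 (95% interval -0.010 to 0.58), with an unadjusted p of 0.0563 and an adjusted p of 0.9996. It was 0.18 without HFD replicate 1 and 0.39 without HFD replicate 2.

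LDHB was at 351 and 456 FPKM on ND, 501 and 370.0 on HFD, 363 and 374 on HSD, and 355 and 345 on HFSD. Each diet overlapped with ND, and the HFSD retinas lay below the HFD and the HSD retinas. In the ratio of LDHA to LDHB transcripts HFSD stood apart from the rest. The protein subunits were not measured. LDHA made up 68.5% and 63.3% of the summed FPKM of both genes on ND, 65.5% and 65.9% on HFD, 66.7% and 64.5% on HSD, and 72.0% and 75.4% on HFSD. Both HFSD retinas lay above all 6 others, at 73.7 ± 2.40% (s.d., n=2) against 65.9 ± 3.65% on ND. The difference of 7.80 percentage points was 10.4 without ND replicate 1 and 5.22 without ND replicate 2, where the s.d. within diets was 2.32. Isoenzyme shares are given as descriptions because the members were chosen with results known, and no test of them was run. A two-sided exact permutation test of these 2 retinas against 2 could not go below a p of 0.333.

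**Figure D4:**
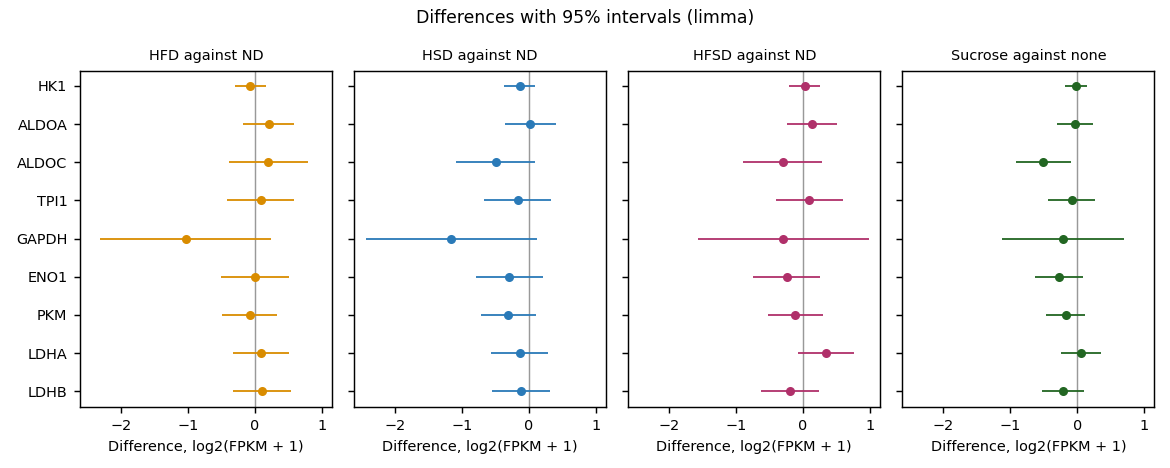
Log2 differences of the 9 members (points) with 95% intervals (lines) from limma on log2(FPKM + 1), for each diet against ND and for the 4 retinas with sucrose against the 4 without. The interval leaves out 0 for ALDOC under sucrose only, and it is widest for GAPDH.

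Counted over members, groups that did not overlap were most frequent on HSD. In HSD both retinas lay below both ND retinas for 6 of 9 members (HK1, ALDOC, GAPDH, ENO1, PKM and LDHA), against 19.7% of all tested genes, and above them for 0 of 9, against 19.3%. In HFD the counts were 1 of 9 below (HK1, against 13.3%) and 0 of 9 above (against 12.5%). In HFSD they were 2 of 9 below (ALDOC and PKM, against 20.6%) and 1 of 9 above (LDHA, against 21.6%). For fat, 4 retinas against 4, 0 of 9 were separate in either direction, against 0.68% above and 0.664% below among all genes. Because the 9 values of a library share its scaling and cell makeup, these counts are descriptions, and the diets share the ND retinas.

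The 2 diets with sucrose were then set against each other, a comparison added after the values had been seen. Both HFSD retinas lay above both HSD retinas for 7 of 9 members (HK1, ALDOA, ALDOC, TPI1, GAPDH, PKM and LDHA), against 18.5% of all tested genes, and below them for LDHB, against 16.2%. The median of the members' log2 differences was 0.19, and that of all genes 0.0083. None of the 9 was called in limma, nor was any gene of the 12204 (0%), and 2.75% of all genes had an unadjusted p under 0.05. LDHA was the 1 member among them, with a log2 difference of 0.48 (95% interval 0.062 to 0.90, unadjusted p = 0.0298, adjusted p = 0.9998). Of the 12 marker sums, 1 was higher without overlap on HFSD than on HSD, 2 were lower and 9 overlapped. The ganglion cell sum was 698 and 802 FPKM on HFSD against 549 and 491 on HSD, with 8 of its 9 markers separate in that direction. The cone sum was 1047 and 1015 FPKM against 1115 and 1180, and the lens sum 5.06 and 2.73 FPKM against 13.7 and 12.1. Over the 8 libraries the ganglion sum had a Pearson correlation of 0.716 with LDHA, 0.755 with HK1, 0.759 with ALDOA and 0.809 with TPI1. It was 0.592 with PKM, 0.274 with ALDOC, 0.159 with GAPDH, -0.0833 with ENO1 and -0.114 with LDHB. Correlations of the lens sum, which was low in every library, ran from -0.927 (HK1) to 0.146 (LDHB). The part of these cells in the differences between HFSD and HSD was not tested.

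Single retinas held much of the spread. HFD replicate 1 had the highest value of 5 of 9 members (ALDOA, ALDOC, LDHB, PKM and TPI1) and the lowest of GAPDH, and exceeded HFD replicate 2 in 8 of 9. HSD replicate 2 had the lowest value of 5 of 9 (ALDOC, HK1, LDHA, PKM and TPI1). That retina also held transcripts of skeletal muscle: the muscle list (25 of 30 markers had a row, MYH4 in 2 rows) summed to 946 FPKM there and to 91.5 to 135 FPKM in the other 7 libraries. ALDOA, the aldolase of muscle, was at 913 FPKM in it, inside the range of the others. Without HSD replicate 2 the log2 difference of ALDOC for sucrose was -0.49.

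Some members varied together over the 8 libraries, and they are grouped here as seen in the values. Pearson correlations of log2 values were 0.834 to 0.889 among ALDOC, ENO1 and LDHB, and 0.55 to 0.855 among PKM, TPI1, LDHA and HK1. The groups were not distinct, since correlations between them ran from -0.0315 to 0.703, and ALDOA was placed in neither. Between GAPDH and the other members they ran from -0.565 to 0.338. ALDOC went with the glucose transporter SLC2A1 (r = 0.881) and the lactate transporter SLC16A1 (r = 0.872). TPI1 and HK1 went with GPI, glucose-6-phosphate isomerase of the step after hexokinase (r = 0.877 and 0.869), and with ENO2 (r = 0.847 and 0.779). All genes of a library share its depth and scaling, so that these values carry no test. The 5 genes outside the pathway lists that were most like the mean of the 9 members over the 8 libraries were TNKS1BP1 (r = 0.922), EXOC3L1 (r = 0.913), SIAH2 (r = 0.903), CDR2L (r = 0.901) and RAC1 (r = 0.895). That mean includes GAPDH, the least steady member. Without GAPDH the mean of centred log2 values went from 0.117 to 0.00532 in ND replicate 1. In HFD replicate 1 it went from 0.108 to 0.281. Likeness to the mean of the 8 members without GAPDH was not computed.

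Among 90 genes listed for the neighbouring steps, 73 had a row and 59 were tested. The lists covered other glycolytic enzymes and regulators, transport of glucose and lactate, entry of pyruvate into mitochondria, gluconeogenesis, the pentose phosphate pathway, glycogen, and oxygen sensing genes with other targets of hypoxia-inducible factor. None of the 59 was called in any of the 6 comparisons. For sucrose, 7 had an unadjusted p under 0.05 and were higher, against 9.17% of all genes, and 13 had one and were lower, against 9.16%.

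Of the 5 transport genes tested, 3 had estimates above 0 for sucrose and 2 below, 2 on each side had an unadjusted p under 0.05, and 0 were called. SLC2A1, which encodes GLUT1, the glucose transporter of the pigment epithelium, glia and photoreceptors, was at 246 and 297 FPKM on ND, 289 and 303 on HFD, 206 and 169 on HSD, and 193 and 211 on HFSD. All 4 retinas with sucrose lay below all 4 without, at a log2 difference of -0.54 (SE 0.106, 95% interval -0.79 to -0.29, unadjusted p = 0.00119, adjusted p = 0.0922). In the fit of 4 against 4 retinas the adjusted p was 0.0384. The sums of the pigment epithelium and Müller lists given above were lower without overlap in the same 4 retinas, and their part in the SLC2A1 difference was not tested. SLC16A1, the lactate transporter MCT1, was at 163 to 227 FPKM without sucrose and 140 to 164 with it, with a log2 difference of -0.44 (adjusted p = 0.15). The transporter SLC16A3, also called MCT4, was at 17.4 to 47.7 FPKM and overlapped between all diets and ND. On the other side, SLC16A7, the lactate and pyruvate transporter MCT2, was at 0.905 to 2.24 FPKM without sucrose and 2.30 to 3.14 with it, which did not overlap (log2 difference 0.58, adjusted p = 0.199). EMB, embigin, a partner of lactate transporters, was at 5.05 to 10.5 FPKM and 7.30 to 14.5 FPKM (0.51, adjusted p = 0.174).

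In the glycogen list, 4 of 8 tested genes had estimates above 0 for sucrose and 0 were called. UGP2, which makes the sugar donor for glycogen, was at 30.0 to 34.8 FPKM without sucrose and 38.3 to 43.6 with it. All 4 retinas with sucrose were above all 4 without, at a log2 difference of 0.32 (95% interval 0.14 to 0.50, adjusted p = 0.133).

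Muscle forms of the pathway were high in 1 library. ENO3, the enolase of muscle, was at 27.0 FPKM in HSD replicate 2 and at 1.85 to 3.10 in the other 7, PGAM2, the phosphoglycerate mutase of muscle, at 23.2 FPKM against 0.220 to 1.17, and PYGM, the glycogen phosphorylase of muscle, at 17.9 FPKM against 1.05 to 3.50. The same library held the muscle markers given above. With HSD replicate 1 left out, ENO3 and PGAM2 were called in HSD against ND (log2 differences 2.99 and 3.74, adjusted p = 0.0227 and 0.0160), and these calls rest on that 1 retina.

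**Figure D5:**
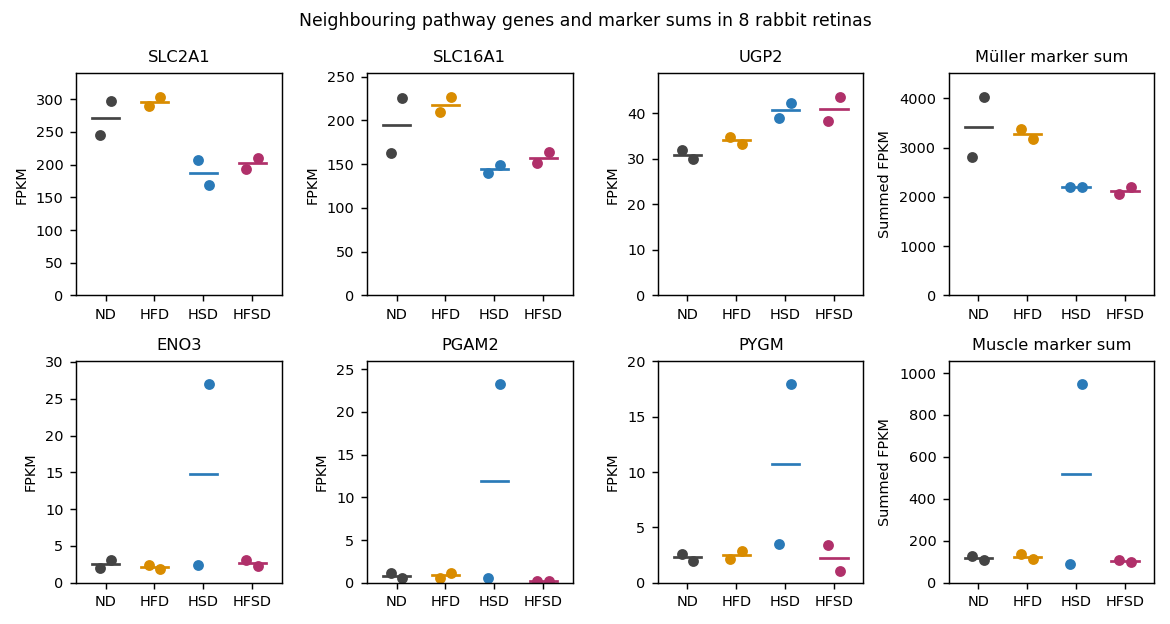
FPKM of genes around glycolysis and summed FPKM of Müller glia and muscle markers in each retina (points), with the mean of each diet (lines); all axes start at 0. In the 4 retinas with sucrose SLC2A1 and the Müller sum are low and UGP2 is high without overlap, while SLC16A1 overlaps through ND replicate 1 (163) and HFSD replicate 2 (164), and ENO3, PGAM2, PYGM and the muscle sum are high in HSD replicate 2.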

How the data were processed

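RNA of 8 retinas (2 per diet) was sequenced on an Illumina HiSeq. The authors checked reads with FastQC, trimmed them, aligned them with TopHat2 to the rabbit genome with at most 2 mismatches, discarded reads mapping to several places, and deposited FPKM per gene and library from an R script of their own. The genome build, annotation and tool versions are not given in the sources used here, so no coordinates or sequences are printed. There were 0 value columns without a sample.

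Of 19293 protein-coding genes, the 12204 that reached 1 FPKM in 2 or more libraries were tested with limma (version 3.58.1, R 4.3.3). The model took log2(FPKM + 1) of all 4 diets together, with a trend of variance on mean, Benjamini-Hochberg adjustment over all tested genes, and a threshold of 0.05. Fold changes on this scale understate those of low genes. Count models were not the main test because the values are FPKM. Gene lengths and depths were recovered from the steps of the values (100.0% of 142752 values above 0 came out whole within a relative 1e-05). Summed fragments exceeded the recovered depth in ND replicate 2 (1.03 times) and HFD replicate 1 (1.02 times), so which total it is was not determined, and a scaling by summed fragments was added after the data were seen. The limma fit was run on simulated data with sucrose differences larger than those of the members. That run does not cover differences as small as theirs.

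The members, the lists of pathway and marker genes, and the tests were chosen with earlier results of these data known. All members with a row were named, as were pathway genes called in any comparison or setting, apart from a gene that is not reported here. Other pathway genes and markers were named as examples, and the 5 most alike genes by correlation. HFSD against HSD and IFFO1 were added later, and HFSD against HSD was not rerun under the alternatives. Deviations of same-numbered libraries from their diet means correlated between -0.165 and 0.0813, so the numbers do not pair retinas.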

Additional observations from a re-analysis of the deposited data

Results flagged for a closer look

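For 4 genes, the retinas with and without an ingredient did not overlap and lay in opposite order in the presence and absence of the other ingredient. They were 1 of the 9 members, HK1, and 3 of the 59 neighbouring pathway genes (5.08%), against 6.28% of all 12204 genes tested. These are differences in mean FPKM, and the pattern of signs itself was not tested. For HK1 the difference with fat was -4.96 FPKM without sucrose and 11.5 FPKM with it, and the difference with sucrose was -9.69 FPKM without fat and 6.72 FPKM with it. The interaction term of limma for HK1 was 0.23 on the log2 scale (adjusted p = 0.999). For PFKFB3, which raises the activator of phosphofructokinase, the difference with sucrose was -4.19 FPKM without fat and 12.6 FPKM with it. EMB, embigin, a partner of lactate transporters, differed with fat by -3.07 FPKM without sucrose and by 5.62 FPKM with it, with an interaction of 1.26 on the log2 scale (limma, unadjusted p = 0.00447, adjusted p = 0.999). MPC1, a subunit of the mitochondrial pyruvate carrier, differed with fat by 35.0 FPKM without sucrose and by -13.8 FPKM with it, and with sucrose by 11.8 FPKM without fat and by -37.0 FPKM with it. The interaction of PFKFB3 was 0.49 and that of MPC1 -0.46 on the log2 scale, with an adjusted p of 0.999 for each.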

How the results depend on the processing

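The call of 0 members held in all 6 comparisons under all alternatives run: 0 of 909 member values passed the threshold, and 48 changed sign. The median log2 difference of the members kept its sign for HSD (-0.28 to -0.13), sucrose (-0.22 to -0.036) and fat (0.035 to 0.16), and changed it for HFD (-0.11 to 0.29), HFSD (-0.16 to 0.047) and the interaction (-0.073 to 0.27). Of the neighbouring pathway genes, 0 were called in the main fits. Leaving out 1 replicate gave 0 to 2 in HSD against ND, 0 to 1 for sucrose and 0 to 1 for the interaction, in each case the highest without HSD replicate 1 (ENO3 and PGAM2 in HSD; ENO3 for sucrose, log2 difference 1.61, adjusted p = 0.0378; PGAM2 for the interaction, log2 difference -4.33, adjusted p = 0.0479). The fit of the compared groups only called 2 for sucrose, SLC2A1 among them. By the fold rule, 1 member was past the limits on HFD, 1 on HSD and 0 on HFSD, and leaving out 1 replicate gave 0 to 1, 1 to 2 and 0 to 1: 0 in HFD without HFD replicate 1 or ND replicate 1, 2 in HSD without ND replicate 1 and 1 in HFSD without ND replicate 2. The LDHA share in HFSD minus ND ran from 5.22 to 10.4 percentage points. With a replicate block, 0 members were called in each comparison, and the block changed no call of a member or pathway gene. The pairing is by number only. The number of all genes called for sucrose ran from 4 to 141 around the 42 of the main fit, was 25 with the block, and the cause was not tested. With 2 retinas per diet, differences between diets below the intervals given could not be told from spread.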

Other observations

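Among 12 tested genes of the list of oxygen sensing genes and targets of hypoxia-inducible factor, 3 separated the retinas with sucrose from those without, all lower with sucrose: EPAS1, which belongs to the factor itself, and the targets NDRG1 and DDIT4. Of all genes tested 6.48% separated in that direction and 6.39% in the other. EPAS1 was at 94.2 to 103 FPKM without sucrose and 78.3 to 82.9 with it (log2 difference -0.29, limma, adjusted p = 0.128). NDRG1 was at 93.5 to 136 FPKM without sucrose and 34.8 to 85.1 with it (-0.75, adjusted p = 0.209), and DDIT4, which restrains growth signalling, at 63.8 to 128 FPKM and 43.3 to 55.3 (-0.75, adjusted p = 0.193). HIF1A was at 132 to 155 FPKM without sucrose and 154 to 158 with it, and BNIP3, a target with a part in clearing mitochondria, at 304 to 390 FPKM and 292 to 334. None of these was called.

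Of the enzymes that regulate entry of hexose into the pathway, PFKFB4 was at 18.9 to 22.6 FPKM without sucrose and 12.9 to 16.8 with it (log2 difference -0.40, adjusted p = 0.158), and PFKFB2 at 52.7 to 62.1 FPKM and 64.0 to 79.6 (0.30, adjusted p = 0.218). The 4 retinas with sucrose did not overlap with the other 4 for either gene, in opposite directions. These are 2 of 5 regulators tested, 1 each way, where 6.48% of all genes tested separated as lower and 6.39% as higher, and 0 of the 5 were called.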
